A study of Mus musculus with 23 samples.

Results

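Interferon-stimulated effector genes were described across tumors of 2 murine glioma lines, CT2A and GL261. The set holds 41 genes of the 35576 genes summed per library. It was chosen by name, with earlier results of these data known, and its rule uses no measured value: antiviral effectors, the ISG15 system, IFIT, IFITM, Mx, PARP and TRIM genes and other genes that interferon induces, leaving out the OAS, GBP, IRF and sensor genes. All 41 genes were found in the tables and passed the minimum count of every comparison, and the lowest value of any gene in any library was 10 estimated reads (Ifitm1, GL261 sorted library 81).

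RNA was sequenced from 23 ex vivo tumors in 6 groups. Bulk tumors came from 4 CT2A-luc and 4 GL261-luc2 tumors. Tumor cells selected with beads came from tagged sublines of both lines, from 3 CT2A and 4 GL261 tumors of adherently cultured cells, called sorted here, and from 5 CT2A and 3 GL261 tumors of cells cultured as neurospheres, called neurosphere here. Per the methods of the study, the hosts were female albino C57BL/6 mice of 7 to 10 weeks, and the cells were placed in the right striatum. All groups carry a luciferase transgene, and neither it nor the tag was in the reference transcriptome, so the sort could not be checked on its own gene. The titles of the 5 CT2A neurosphere libraries name GL261, whereas their cell line and description fields name CT2A, and the fields were followed.

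Interferons act through receptors at the cell surface, Janus kinases and STAT proteins. A complex that holds STAT2 and IRF9 binds the interferon-stimulated response element, ISRE, in front of induced genes, and the gamma-activated site, GAS, is a further element of such genes. The products of the induced genes act on several steps of a viral life cycle: they tag proteins with the ubiquitin-like ISG15, bind foreign RNA, block membrane fusion, deplete or alter nucleotides and halt translation. In tumors the same genes mark exposure to interferon or an active interferon pathway.

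Promoter windows of 300 bases, 250 before and 50 after the start site, were taken from RefSeq on GRCm38.p6 and matched 33 of the 41 genes by symbol. The ISRE core GAAANNGAAA, searched on both strands, lay in a window of 13 of these 33 genes (39.4%), against 3.99% of all 27025 genes with a window. The GAS motif TTCNNNGAA, whose reverse complement is itself, lay in 8 of the 33 (24.2%), against 9.55% of all genes. The windows of the 3 Ifitm genes, which differed from each other in these tumors, are shown with those of Ifit3 and Isg15, with matches to the ISRE core in capitals. They lie at chr7:140967826-140968125 (Ifitm1, plus strand), chr7:140955912-140956211 (Ifitm2, minus strand), chr7:141010695-141010994 (Ifitm3, minus strand), chr19:34583279-34583578 (Ifit3, plus strand) and chr4:156200769-156201068 (Isg15, minus strand).
Ifitm1: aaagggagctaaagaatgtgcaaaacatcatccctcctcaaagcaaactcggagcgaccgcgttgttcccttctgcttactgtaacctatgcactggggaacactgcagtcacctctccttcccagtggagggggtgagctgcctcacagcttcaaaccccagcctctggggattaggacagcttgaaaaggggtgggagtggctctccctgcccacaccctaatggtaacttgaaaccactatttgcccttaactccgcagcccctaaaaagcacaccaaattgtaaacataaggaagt
Ifitm2: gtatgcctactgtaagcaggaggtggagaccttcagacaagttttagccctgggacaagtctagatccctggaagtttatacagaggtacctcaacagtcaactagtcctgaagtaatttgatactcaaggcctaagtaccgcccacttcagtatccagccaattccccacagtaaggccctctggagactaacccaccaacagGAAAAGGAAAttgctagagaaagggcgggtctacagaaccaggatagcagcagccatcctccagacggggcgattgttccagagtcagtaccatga
Ifitm3: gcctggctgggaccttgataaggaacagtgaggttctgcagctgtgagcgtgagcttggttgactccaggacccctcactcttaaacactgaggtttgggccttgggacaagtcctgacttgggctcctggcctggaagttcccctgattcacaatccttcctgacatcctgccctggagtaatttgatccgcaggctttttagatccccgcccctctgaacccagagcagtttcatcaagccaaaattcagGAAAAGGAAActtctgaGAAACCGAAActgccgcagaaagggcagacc
Ifit3: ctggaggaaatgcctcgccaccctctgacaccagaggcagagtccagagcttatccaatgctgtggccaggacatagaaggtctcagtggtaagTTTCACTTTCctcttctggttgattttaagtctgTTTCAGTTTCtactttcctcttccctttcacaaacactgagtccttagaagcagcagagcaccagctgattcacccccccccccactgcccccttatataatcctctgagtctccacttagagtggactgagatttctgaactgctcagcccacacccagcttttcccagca
Isg15: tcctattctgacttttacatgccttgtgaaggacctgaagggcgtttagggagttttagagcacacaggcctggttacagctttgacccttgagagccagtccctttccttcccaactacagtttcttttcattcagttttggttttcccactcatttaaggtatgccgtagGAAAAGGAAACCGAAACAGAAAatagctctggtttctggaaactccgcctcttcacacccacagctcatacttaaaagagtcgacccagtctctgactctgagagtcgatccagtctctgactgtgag
The Ifitm1 window held no match, the Ifitm2 window 1 match, the Ifitm3 window 2 matches just after the start site, the Ifit3 window 2 matches and the Isg15 window 3 matches that overlap each other. A match in such a window is a description of its letters and no measure of binding.

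Depth was 9590096 to 9853530 estimated reads per library in CT2A bulk tumors, against 34622622 to 42608400 in GL261 bulk tumors, and 7395846 to 15263587 in the sorted and neurosphere libraries. Levels are given as CPM, counts scaled to library size with the TMM method over all 23 libraries. Some libraries stood apart. Of the 41 genes, 38 were highest among CT2A bulk tumors in library 47, and 34 were lowest among GL261 bulk tumors in library 412, whose 6 neuron markers summed to 2367 CPM, against 124.5 to 1493 CPM in the other GL261 bulk tumors. Among CT2A neurosphere libraries, library 59 had a summed level of 14 macrophage markers of 3094 CPM, against 605.0 to 1464 CPM in the other 4. GL261 sorted library 81 had the lowest macrophage sum of the sorted group, 266.2 CPM, against 686.3 to 1250 CPM in the other 3. Macrophage sums were of like size between the lines in bulk tumors, 792.8 to 1322 CPM in CT2A and 872.1 to 1297 CPM in GL261, and in sorted cells, 840.1 to 1681 CPM in CT2A and 266.2 to 1250 CPM in GL261, but differed in neurosphere tumors, 605.0 to 3094 CPM in CT2A and 5591 to 8908 CPM in GL261. No macrophage marker was at 0 throughout a group. The 8 T cell markers summed to 12.7 to 33 CPM in CT2A and 27.2 to 45.3 CPM in GL261 bulk tumors, 3.69 to 8.88 CPM in CT2A and 13.6 to 20 CPM in GL261 sorted cells, and 2.37 to 5.96 CPM in CT2A and 18 to 35.3 CPM in GL261 neurosphere cells. In such samples fewer cells of a type and less RNA per cell cannot be told apart.

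The 41 genes together were lower in CT2A than in GL261 in every setting. Their summed level was 2626 ± 595.6 CPM in CT2A bulk tumors and 5081 ± 947.6 CPM in GL261 bulk tumors (SD, n = 4 each), 2057 ± 156.6 CPM (SD, n = 3) in CT2A sorted cells and 5402 ± 768.3 CPM (SD, n = 4) in GL261 sorted cells, and 2240 ± 333.6 CPM (SD, n = 5) in CT2A neurosphere cells and 5299 ± 562.8 CPM (SD, n = 3) in GL261 neurosphere cells. The highest CT2A sum of each setting lay under the lowest GL261 sum. Whether a gene differed was tested with edgeR across all genes, with an adjusted p under 0.05 as the threshold.

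In bulk tumors 20 of the 41 genes were lower in CT2A and 1 was higher, while 11.9% of all 16434 genes tested were lower and 11.4% higher. Sorted cells had 34 of 41 lower and 2 higher, against 26.8% of 13789 genes lower and 24% higher. Neurosphere cells had 30 of 41 lower and 1 higher, against 29.6% of 13733 genes lower and 30% higher. The median log2 fold change of the 41 genes, CT2A over GL261, was -0.77 in bulk tumors, -1.52 in sorted cells and -1.36 in neurosphere cells, where the medians of all genes tested were -0.05, -0.01 and 0.03. A lower level in all 3 comparisons was called for 17 genes, in 2 of them for 14, in 1 for 5 and in none for 5. Of the 17, 14 kept their call in every fit with 1 library left out. The exceptions lost their bulk call: Eif2ak2 without CT2A library 39, 40 or 48 or GL261 library 414 or 417 (adjusted p = 0.0651 to 0.0762), Phf11d without CT2A library 39 (adjusted p = 0.0518) and Sp100 without CT2A library 39 or GL261 library 414 or 417 (adjusted p = 0.05 to 0.0545). The bulk groups also differ by line in depth and in implanted cells, 25000 for CT2A and 100000 for GL261, which cannot be told apart from the line. In neurosphere cells all 14 macrophage markers were lower in CT2A as well, with a median log2 fold change of -2.33, whereas 0 of 14 passed in bulk tumors (1 at an unadjusted p under 0.05) and 1 was lower in sorted cells. Markers of some other cell types were lower in CT2A too, and others were not. In sorted cells 5 of 8 endothelial markers (median log2 fold change -1.48) and 3 of 6 oligodendrocyte markers (-1.50) were lower in CT2A. Only 3 of 8 T cell markers met the minimum count there, a mean over both groups, and 2 of these were lower (median -2.53). The 8 summed to 3.69 to 8.88 CPM in CT2A and 13.6 to 20 CPM in GL261. The 3 were thus tested mostly through GL261, and their calls add nothing to these sums. Astrocyte (median -0.16) and neuron markers (0.87) each had 1 lower and 1 higher there. Medians of macrophage (0.46) and dendritic cell markers (0.28) were above 0 there. In neurosphere cells 7 of 8 endothelial (-2.5), 4 of 6 oligodendrocyte (-2.82) and 4 of 5 astrocyte markers (-2.07) were lower. All 3 T cell markers tested were lower (-3.21), likewise tested mostly through GL261. The 8 T cell markers summed to 2.37 to 5.96 CPM in CT2A and 18 to 35.3 CPM in GL261 neurosphere cells. Of the 4 neuron markers tested there, 1 was lower and 1 higher. Of the 2 dendritic cell markers tested there, 1 was lower (median -1.67), with sums of 35.5 to 47.8 CPM in CT2A and 298.3 to 428.9 CPM in GL261. The 1 NK cell marker tested was lower (-6.26), and the 1 B cell marker tested did not pass by edgeR (-1.25, unadjusted p under 0.05). NK cell sums were 0.443 to 1.17 CPM in CT2A and 11 to 18.2 CPM in GL261, so that NK marker was tested through GL261. Endothelial sums were 90.2 to 133.9 CPM in CT2A and 71 to 285.2 CPM in GL261 sorted cells, and 39.1 to 111.3 CPM in CT2A and 201.5 to 263.6 CPM in GL261 neurosphere cells. Oligodendrocyte sums were 227.2 to 338.0 CPM in CT2A and 296.9 to 663.3 CPM in GL261 sorted cells, and 14.9 to 288.8 CPM in CT2A and 344.9 to 405.1 CPM in GL261 neurosphere cells. In bulk tumors 1 of 8 T cell markers was lower, and no endothelial or oligodendrocyte marker passed by edgeR (0 of either at an unadjusted p under 0.05). The part of these cells in the differences was not tested.

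**Figure D1:**
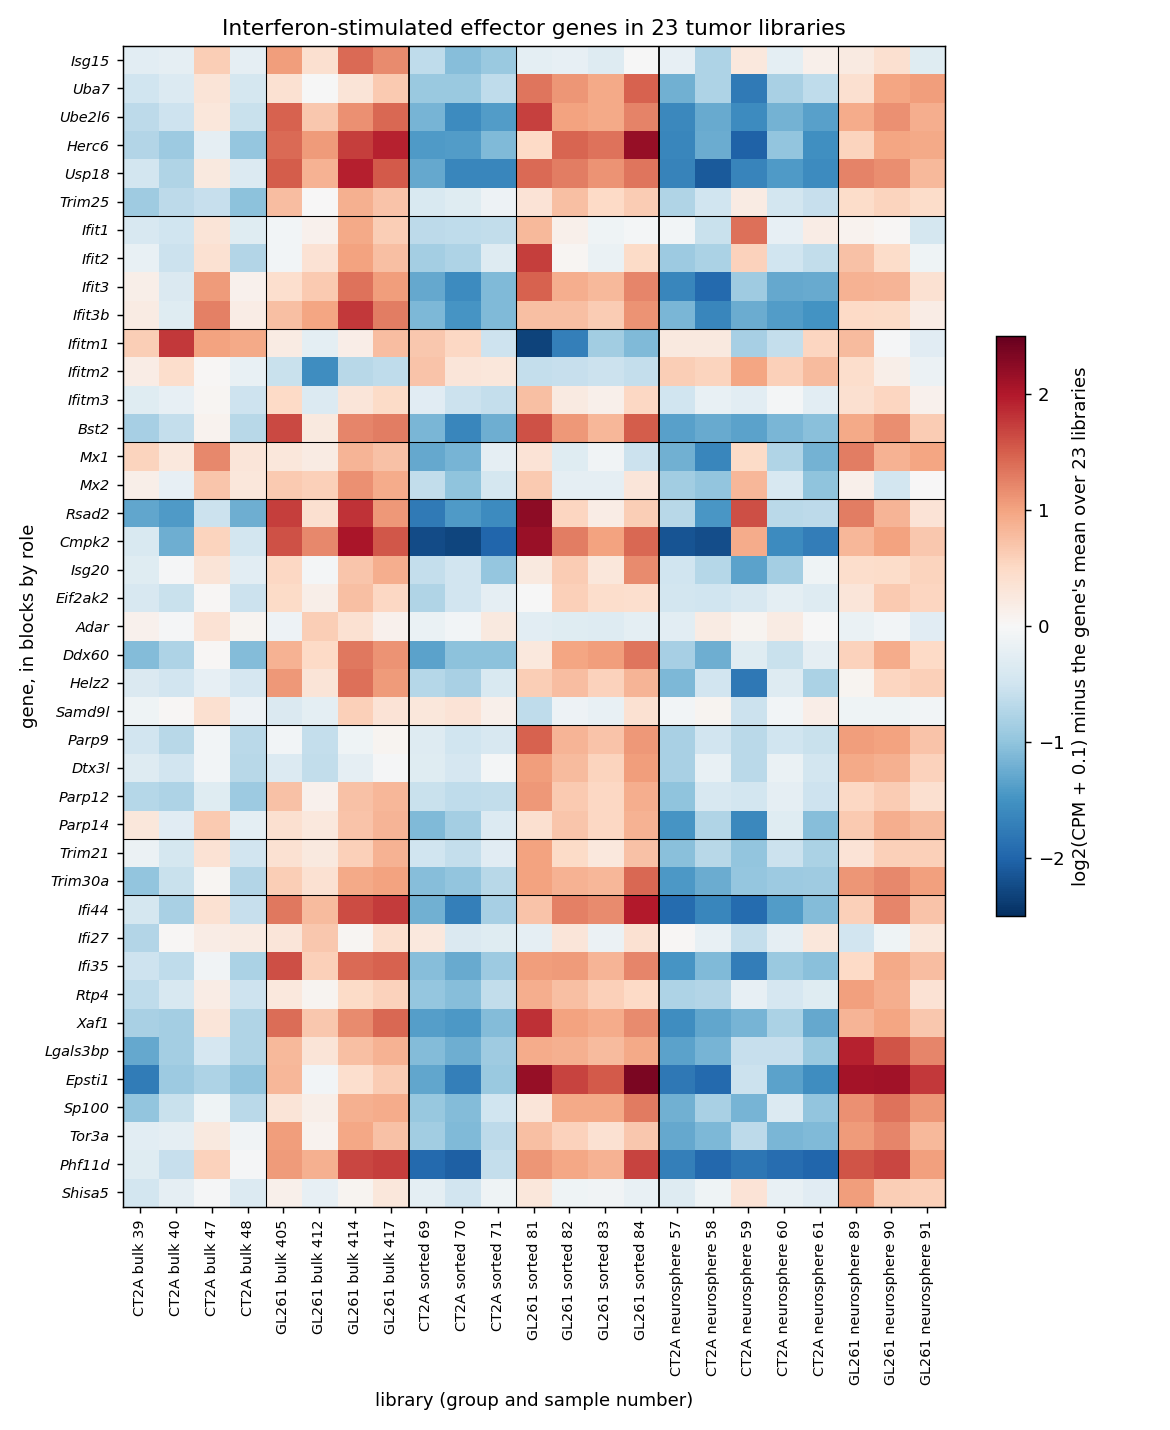
Level of each of the 41 genes (rows, in blocks by role) in each of the 23 libraries (columns), as log2(CPM + 0.1) minus the gene's mean over the libraries, with red above and blue below the mean. CT2A columns are mostly blue and GL261 columns mostly red in all 3 settings, while the rows of Ifitm1, Ifitm2, Adar, Samd9l and Ifi27 do not follow that pattern.

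**Figure D2:**
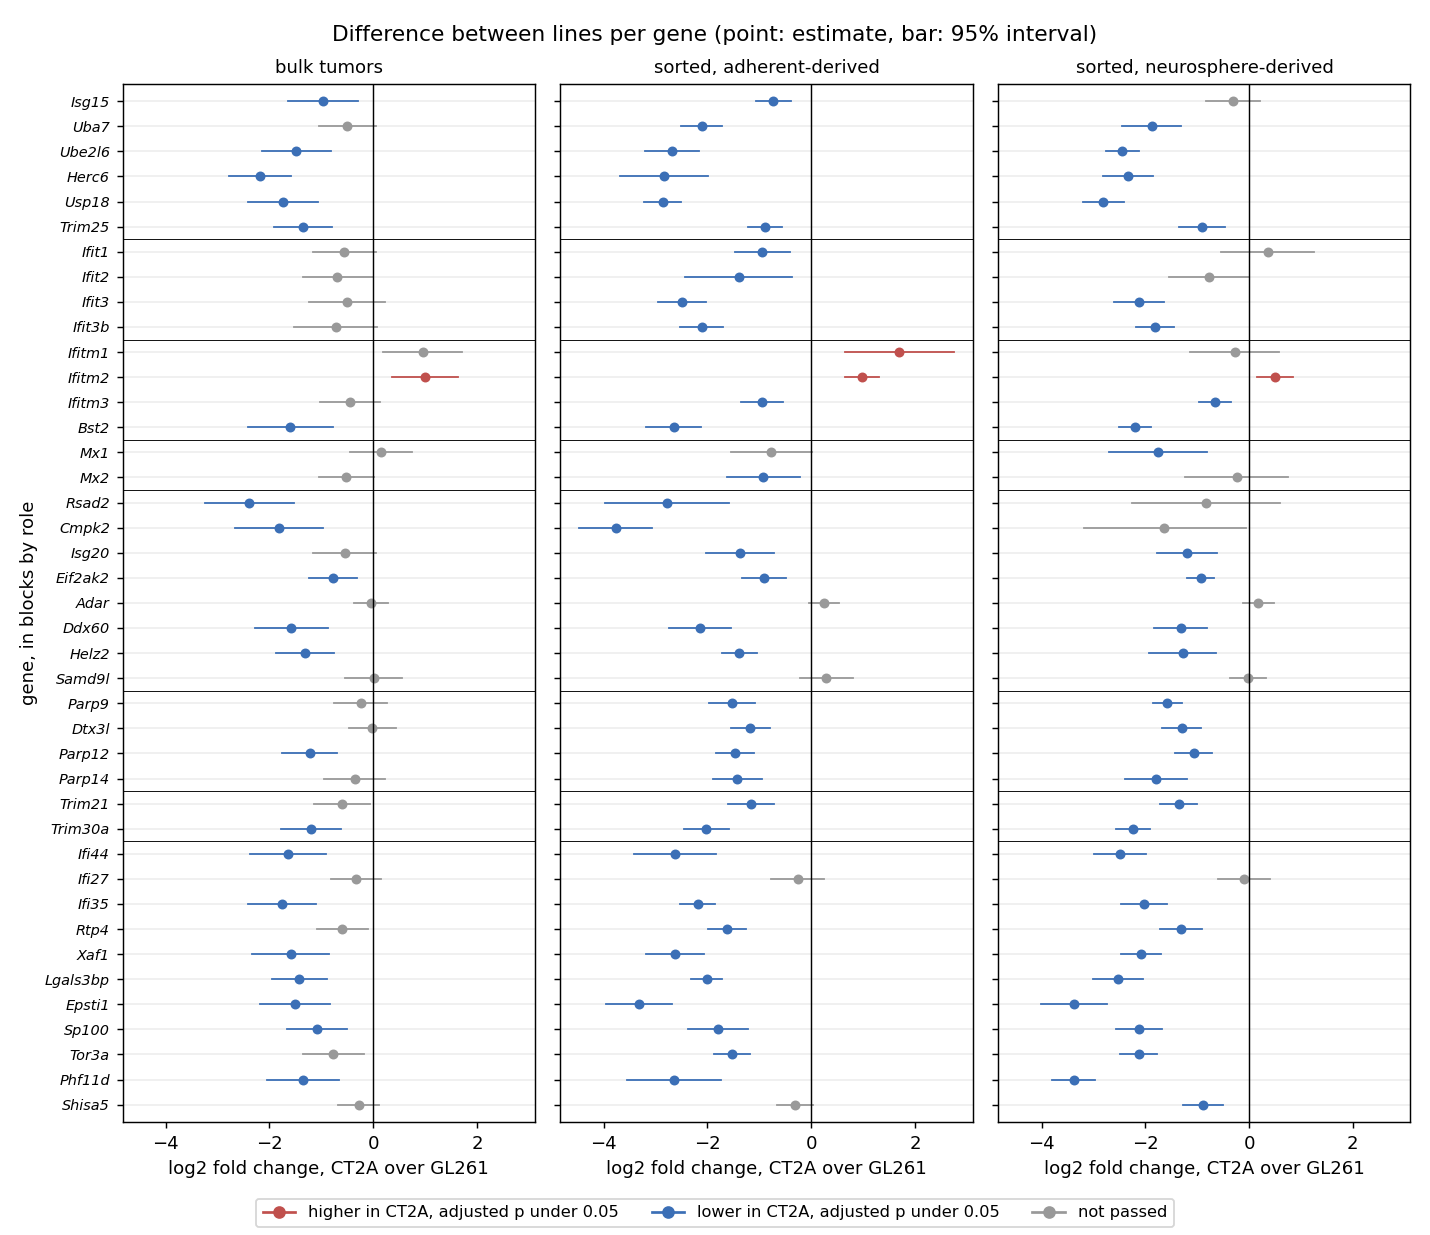
Log2 fold change of each gene, CT2A over GL261, with its 95% interval, in bulk tumors, sorted cells and neurosphere cells. Blue genes were lower and red genes higher in CT2A at an adjusted p under 0.05, and grey genes did not pass: 20, 34 and 30 of 41 are blue from left to right.

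Of the 6 genes of the ISG15 system, 5 were lower in CT2A bulk tumors, all 6 in sorted cells and 5 in neurosphere cells. Uba7 did not pass in bulk tumors, except with an offset for effective length (log2 fold change -0.68, adjusted p = 0.0489), and Isg15 did not pass in neurosphere cells. Usp18, which removes ISG15 from proteins and restrains the type I interferon receptor, was among the 3 lowest genes in sorted and neurosphere cells. In bulk tumors Usp18 had 22.9, 18.6, 37.2 and 24.7 CPM in the CT2A libraries, against 89.9, 57.2, 120.2 and 90.7 CPM in the GL261 libraries. In sorted cells Usp18 had 12.8, 10.1 and 10.1 CPM in the CT2A libraries, against 84.2, 76.1, 68.3 and 79.5 CPM in the GL261 libraries. In neurosphere cells Usp18 had 9.79, 7.24, 9.86, 11.7 and 10.5 CPM in the CT2A libraries, against 74.6, 70 and 55.2 CPM in the GL261 libraries. The lines did not overlap in any setting. For Usp18 the log2 fold change was -1.74 (standard error 0.29, adjusted p = 0.00444) in bulk tumors, -2.86 (standard error 0.16, adjusted p = 3.88e-06) in sorted cells and -2.81 (standard error 0.18, adjusted p = 9.47e-07) in neurosphere cells.

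Herc6, the main ISG15 ligase of the mouse, was among the 3 lowest genes in bulk tumors. In bulk tumors Herc6 had 61.5, 54.3, 86.5 and 52.2 CPM in the CT2A libraries, against 272.9, 213.4, 338.4 and 385.6 CPM in the GL261 libraries. In sorted cells Herc6 had 38, 38.6 and 47.5 CPM in the CT2A libraries, against 144.1, 278.1, 259.2 and 460.5 CPM in the GL261 libraries. In neurosphere cells Herc6 had 32.6, 43, 25.1, 51.2 and 35 CPM in the CT2A libraries, against 149.4, 201.6 and 195.6 CPM in the GL261 libraries. Every CT2A library lay under every GL261 library of its setting. For Herc6 the log2 fold change was -2.19 (standard error 0.26, adjusted p = 0.00105) in bulk tumors, -2.84 in sorted cells and -2.33 in neurosphere cells. Ube2l6, the conjugating enzyme for ISG15, was lower with log2 fold changes of -1.48, -2.68 and -2.44 in bulk, sorted and neurosphere samples, and Trim25, a ubiquitin ligase of the RNA sensing pathway, with -1.36, -0.89 and -0.91.

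Isg15, the ubiquitin-like modifier itself, had the log2 fold change nearest to 0 of these 6 genes in sorted and in neurosphere cells. In bulk tumors Isg15 had 53.5, 55.1, 99.4 and 54.9 CPM in the CT2A libraries, against 133.0, 85.7, 171.7 and 146.2 CPM in the GL261 libraries. In sorted cells Isg15 had 41.4, 30.9 and 33.7 CPM in the CT2A libraries, against 54.1, 55.8, 51.6 and 63.7 CPM in the GL261 libraries. In neurosphere cells Isg15 had 55.8, 37.9, 77.8, 54.3 and 70.3 CPM in the CT2A libraries, against 74.9, 85.6 and 52.3 CPM in the GL261 libraries. The lines overlapped in bulk tumors, through CT2A library 47, and in neurosphere cells, and did not overlap in sorted cells. For Isg15 the log2 fold change was -0.97 (standard error 0.29, adjusted p = 0.0445) in bulk tumors, -0.73 (standard error 0.15, adjusted p = 0.00391) in sorted cells and -0.31 (standard error 0.24, adjusted p = 0.288) in neurosphere cells, where it did not pass. The bulk call was lost without CT2A library 39, 40 or 48 or without GL261 library 405, 414 or 417 (adjusted p = 0.0749 to 0.12 without each) and with RSEM counts (adjusted p = 0.0633).

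The IFIT genes, which bind foreign RNA and act on translation, lie side by side on chromosome 19. None of the 4 was called in bulk tumors, where their log2 fold changes ran from -0.72 to -0.51, while all 4 were lower in sorted cells and Ifit3 and Ifit3b in neurosphere cells. Ifit3 and Ifit3b share 97.8% of 1700 aligned transcript bases, so that the estimate can split their reads. In bulk tumors Ifit3 had 121.9, 85, 229.6 and 118.1 CPM in the CT2A libraries, against 146.1, 173.9, 280.6 and 228.0 CPM in the GL261 libraries. In sorted cells Ifit3 had 45.2, 37.1 and 51.4 CPM in the CT2A libraries, against 304.6, 207.7, 192.4 and 256.2 CPM in the GL261 libraries. In neurosphere cells Ifit3 had 35.6, 28.6, 59, 45.4 and 45.7 CPM in the CT2A libraries, against 199.5, 199.4 and 143.0 CPM in the GL261 libraries. The bulk groups overlapped and the other groups did not. For Ifit3 the log2 fold change was -0.51 (standard error 0.32, adjusted p = 0.316) in bulk tumors, -2.48 (standard error 0.20, adjusted p = 2.93e-05) in sorted cells and -2.12 (standard error 0.22, adjusted p = 2.26e-05) in neurosphere cells. Ifit3b was lower in bulk tumors without CT2A library 47 (log2 fold change -1.12, adjusted p = 0.0289). With all libraries it had log2 fold changes of -0.72, -2.11 and -1.81 in bulk, sorted and neurosphere samples.

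Ifit1 was called lower in sorted cells alone among the 3 comparisons. In bulk tumors Ifit1 had 81.9, 76.9, 136.6 and 88.4 CPM in the CT2A libraries, against 103.6, 117.3, 209.3 and 165.8 CPM in the GL261 libraries. In sorted cells Ifit1 had 69, 69.8 and 70.5 CPM in the CT2A libraries, against 191.5, 118.1, 100.2 and 105.3 CPM in the GL261 libraries. In neurosphere cells Ifit1 had 103.2, 74.2, 280.8, 94.7 and 124.0 CPM in the CT2A libraries, against 115.0, 111.5 and 80.3 CPM in the GL261 libraries. The sorted groups did not overlap and the other groups did, and CT2A neurosphere library 59 was above every GL261 neurosphere library. For Ifit1 the log2 fold change was -0.56 (standard error 0.27, adjusted p = 0.174) in bulk tumors, -0.94 (standard error 0.23, adjusted p = 0.0092) in sorted cells and 0.36 (standard error 0.40, adjusted p = 0.467) in neurosphere cells, and -0.09 (adjusted p = 0.696) in the last without library 59.

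Ifit2 was also called lower in sorted cells only. In bulk tumors Ifit2 had 107.6, 84.6, 160.1 and 73.6 CPM in the CT2A libraries, against 116.2, 157.5, 245.6 and 205.6 CPM in the GL261 libraries. In sorted cells Ifit2 had 67.9, 71.6 and 98.3 CPM in the CT2A libraries, against 405.0, 126.2, 108.5 and 170.0 CPM in the GL261 libraries. In neurosphere cells Ifit2 had 64.8, 70.4, 182.4, 86.3 and 79.9 CPM in the CT2A libraries, against 202.8, 168.2 and 113.2 CPM in the GL261 libraries. The lines overlapped in bulk tumors and, through library 59, in neurosphere cells, and GL261 sorted library 81 lay far above the other GL261 sorted libraries. For Ifit2 the log2 fold change was -0.69 (standard error 0.30, adjusted p = 0.139) in bulk tumors, -1.40 (standard error 0.45, adjusted p = 0.0297) in sorted cells and -0.78 (standard error 0.34, adjusted p = 0.0736) in neurosphere cells. The sorted call was lost without any of the 3 CT2A libraries (adjusted p = 0.104 without 69, 0.0977 without 70 and 0.0576 without 71), and in neurosphere cells Ifit2 was lower without CT2A library 59 (log2 fold change -1.14, adjusted p = 4.50e-04), without GL261 library 91 (adjusted p = 0.0455) and by DESeq2 (adjusted p = 0.0294).

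The IFITM proteins sit in endosomal and surface membranes and block the fusion of viruses with them. Their genes lie within the same stretch of chromosome 7 and went in different directions. Ifitm2 was higher in CT2A in all 3 comparisons, the only gene of the 41 that was. In bulk tumors Ifitm2 had 102.1, 121.9, 92.6 and 79.6 CPM in the CT2A libraries, against 61.3, 30.7, 56.1 and 57.9 CPM in the GL261 libraries. In sorted cells Ifitm2 had 148.5, 111.7 and 110.3 CPM in the CT2A libraries, against 59.5, 60.2, 61.8 and 59.7 CPM in the GL261 libraries. In neurosphere cells Ifitm2 had 137.7, 133.7, 178.0, 136.4 and 155.9 CPM in the CT2A libraries, against 122.8, 100.6 and 81.7 CPM in the GL261 libraries. Every CT2A library lay above every GL261 library of its setting. For Ifitm2 the log2 fold change was 1.0 (standard error 0.28, adjusted p = 0.0338) in bulk tumors, 0.98 (standard error 0.14, adjusted p = 5.10e-04) in sorted cells and 0.50 (standard error 0.16, adjusted p = 0.0188) in neurosphere cells. The sorted call held with any library left out. The bulk call was lost without CT2A library 39, 40 or 47 or GL261 library 414 or 417 (adjusted p = 0.0604 to 0.104), and the neurosphere call without GL261 library 90 (adjusted p = 0.0646) or 91 (adjusted p = 0.0851), with the log2 fold change staying between 0.36 and 1.15 in all these fits of both comparisons.

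Ifitm1 had the largest increase of the set, in sorted cells, at the lowest level of the family. In bulk tumors Ifitm1 had 8.84, 20, 11.7 and 11.2 CPM in the CT2A libraries, against 6.69, 4.85, 6.46 and 9.9 CPM in the GL261 libraries. In sorted cells Ifitm1 had 9.29, 8.3 and 4.01 CPM in the CT2A libraries, against 1.08, 1.7, 3.1 and 2.63 CPM in the GL261 libraries. In neurosphere cells Ifitm1 had 6.86, 6.85, 3.21, 3.79 and 8.42 CPM in the CT2A libraries, against 10.1, 5.65 and 4.75 CPM in the GL261 libraries. The lines did not overlap in sorted cells, overlapped in bulk tumors at GL261 library 417 alone, and overlapped widely in neurosphere cells. For Ifitm1 the log2 fold change was 0.95 (standard error 0.34, adjusted p = 0.0758) in bulk tumors, 1.70 (standard error 0.46, adjusted p = 0.0141) in sorted cells and -0.28 (standard error 0.38, adjusted p = 0.551) in neurosphere cells. The sorted call was lost without CT2A library 69 (adjusted p = 0.0607) or 70 (adjusted p = 0.054), and in bulk tumors DESeq2 (adjusted p = 0.031) and RSEM counts (adjusted p = 0.0344) called Ifitm1 higher.

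Ifitm3, the most abundant of the 41 genes in every group on the TPM scale, which accounts for transcript length, went the other way. In bulk tumors Ifitm3 had 209.6, 225.7, 269.2 and 181.6 CPM in the CT2A libraries, against 367.8, 205.5, 319.2 and 361.8 CPM in the GL261 libraries. In sorted cells Ifitm3 had 212.0, 179.8 and 171.1 CPM in the CT2A libraries, against 434.4, 304.9, 284.9 and 373.4 CPM in the GL261 libraries. In neurosphere cells Ifitm3 had 183.6, 229.3, 216.0, 249.7 and 215.6 CPM in the CT2A libraries, against 344.2, 377.1 and 280.4 CPM in the GL261 libraries. The lines overlapped only in bulk tumors, at GL261 library 412. For Ifitm3 the log2 fold change was -0.45 (standard error 0.25, adjusted p = 0.255) in bulk tumors, -0.95 (standard error 0.18, adjusted p = 0.00252) in sorted cells and -0.65 (standard error 0.14, adjusted p = 0.0024) in neurosphere cells, and Ifitm3 was lower in bulk tumors without GL261 library 412 (log2 fold change -0.64, adjusted p = 0.0263). Ifitm2 and Ifitm3 share 83.3% of 365 aligned transcript bases. Bst2, or tetherin, which holds budding viruses at the cell surface, was lower in every setting, with log2 fold changes of -1.60, -2.65 and -2.20 in bulk, sorted and neurosphere samples.

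**Figure D3:**
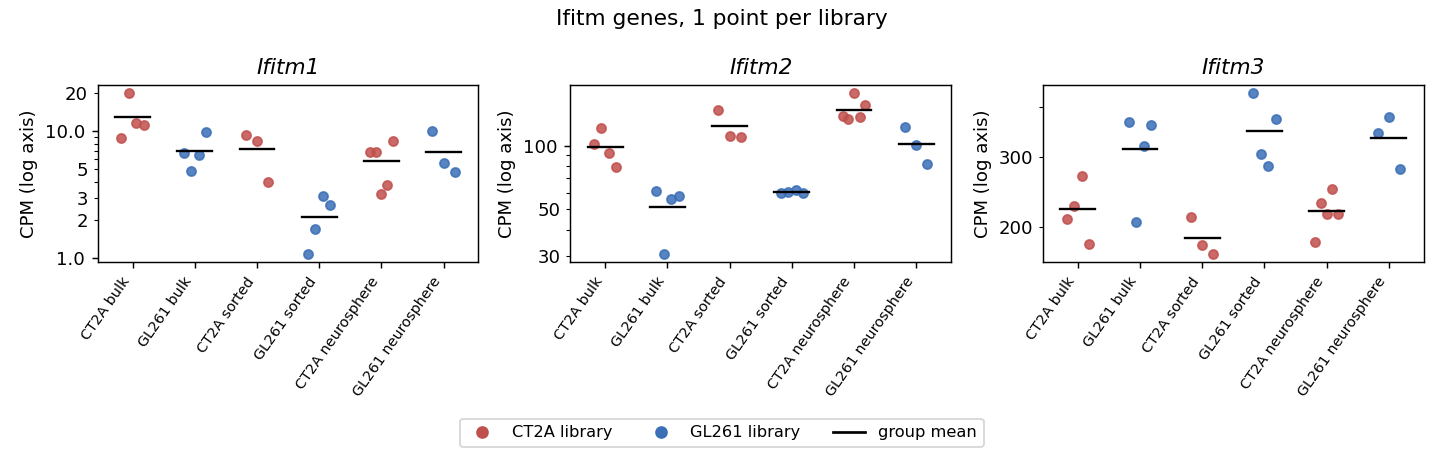
Ifitm1, Ifitm2 and Ifitm3 in the 6 groups, in CPM on log axes with a scale of its own for each gene, with 1 point per library and a line at the group mean. Ifitm2 lies higher in CT2A in each setting, Ifitm3 has lower CT2A means in each setting, and Ifitm1 lies higher in CT2A in sorted cells, at 4.01 to 9.29 CPM against 1.08 to 3.10 CPM in GL261.

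Rsad2 and Cmpk2 are neighbours on chromosome 12 that point away from each other. Rsad2, or viperin, turns CTP into a chain-terminating nucleotide, and Cmpk2 is a kinase that supplies its substrate. They had the lowest log2 fold changes of the set in bulk tumors (Rsad2) and sorted cells (Cmpk2). In bulk tumors Rsad2 had 22.5, 21, 38.6 and 23.9 CPM in the CT2A libraries, against 185.6, 74.2, 194.6 and 118.2 CPM in the GL261 libraries. In sorted cells Rsad2 had 16.4, 20.8 and 18.6 CPM in the CT2A libraries, against 263.3, 81.6, 63.4 and 85.6 CPM in the GL261 libraries. In neurosphere cells Rsad2 had 34.6, 20.4, 171.9, 34.9 and 35.6 CPM in the CT2A libraries, against 136.3, 100.6 and 71.3 CPM in the GL261 libraries. The lines overlapped only in neurosphere cells, and there through CT2A library 59, which lay above every GL261 neurosphere library. For Rsad2 the log2 fold change was -2.39 (standard error 0.38, adjusted p = 0.00317) in bulk tumors, -2.78 (standard error 0.52, adjusted p = 0.00238) in sorted cells and -0.83 (standard error 0.63, adjusted p = 0.283) in neurosphere cells, and -1.75 (adjusted p = 2.43e-04) in the last without library 59. GL261 sorted library 81 was also far above its group, and without it Rsad2 was still lower in sorted cells.

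Cmpk2 followed the same libraries. In bulk tumors Cmpk2 had 32.4, 18, 62.2 and 30.7 CPM in the CT2A libraries, against 127.7, 97.3, 175.1 and 123.8 CPM in the GL261 libraries. In sorted cells Cmpk2 had 8.92, 8.53 and 10.6 CPM in the CT2A libraries, against 190.2, 102.1, 85.5 and 114.0 CPM in the GL261 libraries. In neurosphere cells Cmpk2 had 9.39, 9.03, 80.7, 14.2 and 12.6 CPM in the CT2A libraries, against 74.8, 85 and 67.5 CPM in the GL261 libraries. CT2A neurosphere library 59 lay within the GL261 range, and the other 4 CT2A libraries lay well under it. For Cmpk2 the log2 fold change was -1.81 (standard error 0.37, adjusted p = 0.00968) in bulk tumors, -3.77 (standard error 0.31, adjusted p = 2.85e-05) in sorted cells and -1.63 (standard error 0.69, adjusted p = 0.0692) in neurosphere cells, and -2.79 (adjusted p = 8.60e-07) in the last without library 59. The fit of all 6 groups also called Cmpk2 lower there (adjusted p = 0.0141). That library did not stand out for Usp18, Herc6, Uba7 or Helz2, and it was the lowest CT2A neurosphere library for the last 3 of these. Its macrophage marker sum was the highest of its group, and whether the cells it reflects carried the Rsad2 and Cmpk2 transcripts was not tested. GL261 neurosphere libraries had macrophage sums of 5591 to 8908 CPM and 71.3 to 136.3 CPM of Rsad2. They are of the other line, so their values cannot show which cells carried the transcripts in library 59.

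**Figure D4:**
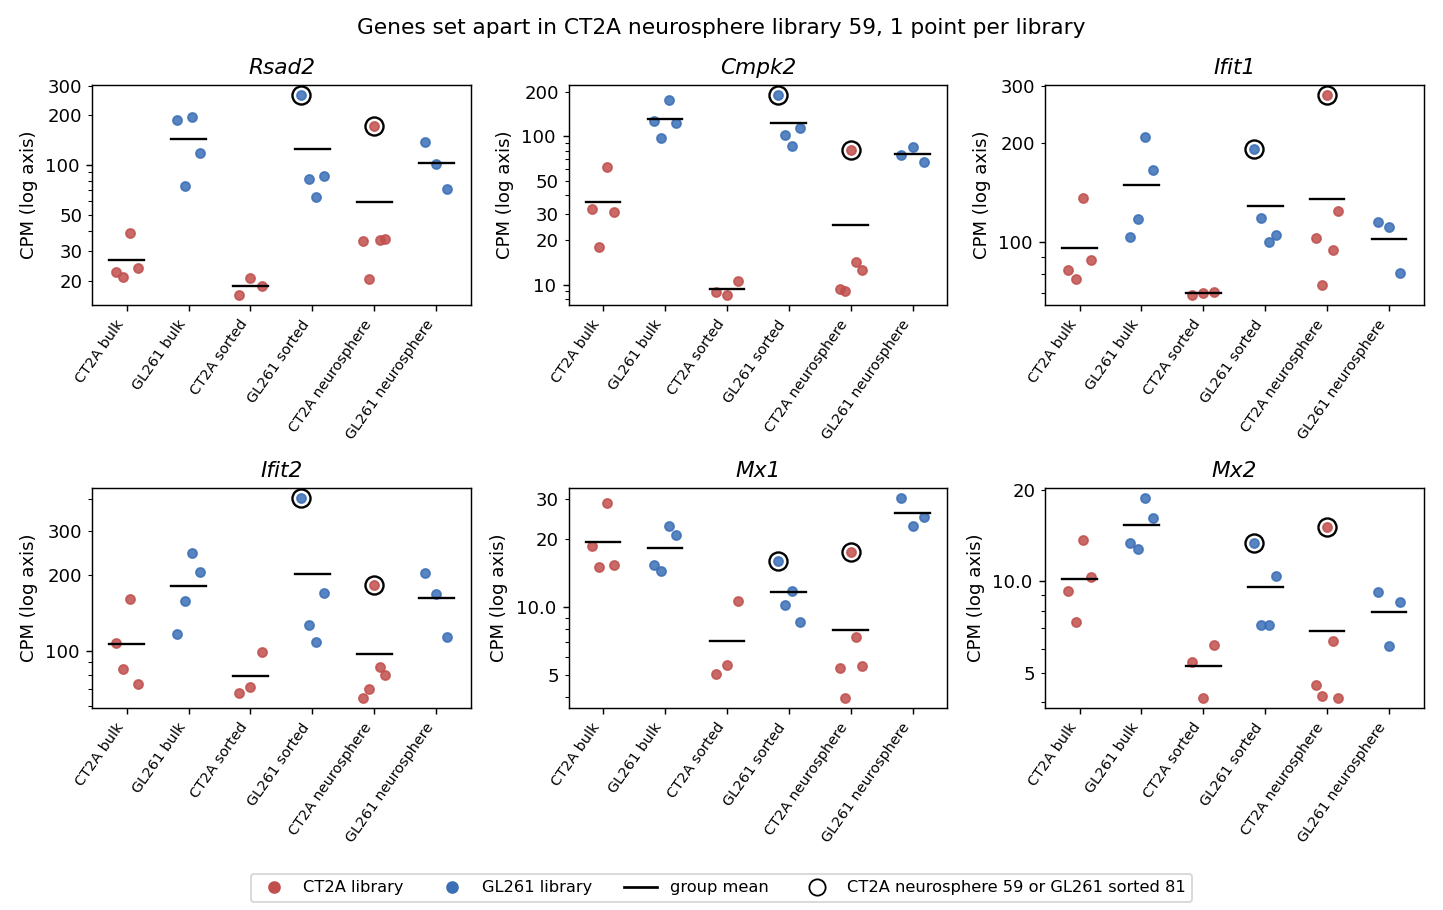
Rsad2, Cmpk2, Ifit1, Ifit2, Mx1 and Mx2 in the 6 groups, in CPM on log axes, with 1 point per library, a line at the group mean and rings around CT2A neurosphere library 59 and GL261 sorted library 81. Library 59 is the highest CT2A neurosphere library for all 6 genes, with 171.9 CPM of Rsad2 against 20.4 to 35.6 CPM in the other 4.

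The other genes that act on RNA, nucleotides and translation were lower in most comparisons. Ddx60, a helicase, had log2 fold changes of -1.58, -2.14 and -1.32 in bulk, sorted and neurosphere samples, and Helz2, a large helicase and coactivator, -1.32, -1.39 and -1.28. Eif2ak2, the kinase PKR that halts translation on double-stranded RNA, was lower by a like amount in each, -0.77, -0.91 and -0.93, and missed the threshold in bulk tumors with an offset for effective length (adjusted p = 0.0551). Isg20, an exonuclease, was lower in sorted (-1.37) and neurosphere cells (-1.19) and did not pass in bulk tumors (-0.55) unless GL261 library 412 was left out (-0.74, adjusted p = 0.0236).

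Adar, which edits adenosine in double-stranded RNA and has an interferon-driven form beside a constitutive form, was not called in any comparison. In bulk tumors Adar had 160.7, 146.2, 192.1 and 156.8 CPM in the CT2A libraries, against 137.2, 228.5, 194.4 and 160.7 CPM in the GL261 libraries. In sorted cells Adar had 132.3, 142.2 and 178.1 CPM in the CT2A libraries, against 123.9, 120.5, 119.2 and 125.5 CPM in the GL261 libraries. In neurosphere cells Adar had 124.4, 173.1, 156.3, 173.2 and 147.6 CPM in the CT2A libraries, against 132.3, 142.5 and 122.5 CPM in the GL261 libraries. The CT2A libraries lay above the GL261 libraries in sorted cells, and the lines overlapped elsewhere. For Adar the log2 fold change was -0.04 (standard error 0.15, adjusted p = 0.89) in bulk tumors, 0.25 (standard error 0.13, adjusted p = 0.135) in sorted cells and 0.18 (standard error 0.13, adjusted p = 0.266) in neurosphere cells. The 95% intervals ran from -0.38 to 0.29 in bulk tumors, -0.04 to 0.54 in sorted cells and -0.12 to 0.48 in neurosphere cells, none of which reaches the median of the 41 genes in the same comparison.

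Samd9l, which restricts translation and cell growth, did not pass either. In bulk tumors Samd9l had 79.1, 87.3, 112.4 and 77.7 CPM in the CT2A libraries, against 66.3, 71.3, 128.2 and 107.9 CPM in the GL261 libraries. In sorted cells Samd9l had 103.3, 107.6 and 92.5 CPM in the CT2A libraries, against 54.9, 78.1, 74.9 and 111.0 CPM in the GL261 libraries. In neurosphere cells Samd9l had 80.5, 89, 58.5, 81.4 and 95.9 CPM in the CT2A libraries, against 78.6, 78.8 and 80.8 CPM in the GL261 libraries. The lines overlapped in every setting. For Samd9l the log2 fold change was 0.01 (standard error 0.24, adjusted p = 0.99) in bulk tumors, 0.29 (standard error 0.22, adjusted p = 0.306) in sorted cells and -0.02 (standard error 0.16, adjusted p = 0.941) in neurosphere cells, and the 95% intervals ran from -0.54 to 0.55, -0.22 to 0.80 and -0.36 to 0.33.

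Ifi27, a small interferon-induced membrane protein, was called in no comparison, though all 3 estimates were below 0. In bulk tumors Ifi27 had 26.2, 44.5, 49.6 and 49.8 CPM in the CT2A libraries, against 53.4, 69.1, 44.8 and 57.8 CPM in the GL261 libraries. In sorted cells Ifi27 had 51.9, 33.9 and 35 CPM in the CT2A libraries, against 37.1, 53.8, 39 and 56.4 CPM in the GL261 libraries. In neurosphere cells Ifi27 had 44.6, 38.3, 28.7, 37.2 and 52.6 CPM in the CT2A libraries, against 31.2, 40.2 and 53 CPM in the GL261 libraries. The lines overlapped throughout, most closely in neurosphere cells. For Ifi27 the log2 fold change was -0.33 (standard error 0.21, adjusted p = 0.322) in bulk tumors, -0.26 (standard error 0.23, adjusted p = 0.36) in sorted cells and -0.09 (standard error 0.22, adjusted p = 0.746) in neurosphere cells.

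Shisa5, a membrane protein linked to cell death, was called only in neurosphere cells. In bulk tumors Shisa5 had 73.1, 85.5, 97.6 and 79.2 CPM in the CT2A libraries, against 109.7, 87.4, 104.7 and 122.6 CPM in the GL261 libraries. In sorted cells Shisa5 had 84.7, 72.1 and 92.4 CPM in the CT2A libraries, against 121.9, 92.3, 93.9 and 88.5 CPM in the GL261 libraries. In neurosphere cells Shisa5 had 80.3, 92.6, 126.6, 88.5 and 82.6 CPM in the CT2A libraries, against 206.3, 152.4 and 150.4 CPM in the GL261 libraries. The lines overlapped in bulk tumors and sorted cells and were apart in neurosphere cells. For Shisa5 the log2 fold change was -0.28 (standard error 0.17, adjusted p = 0.304) in bulk tumors, -0.31 (standard error 0.15, adjusted p = 0.123) in sorted cells and -0.89 (standard error 0.17, adjusted p = 0.00125) in neurosphere cells.

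The Mx genes are a family named for GTPases that trap viral particles, and the annotation lists Mx2 as a polymorphic pseudogene. Whether Mx1 or Mx2 makes a working protein in these lines was not measured. RNA levels of both genes were low in all groups. In bulk tumors Mx1 had 18.6, 15.1, 28.8 and 15.4 CPM in the CT2A libraries, against 15.3, 14.4, 22.8 and 20.9 CPM in the GL261 libraries. In sorted cells Mx1 had 5.08, 5.53 and 10.7 CPM in the CT2A libraries, against 16, 10.2, 11.8 and 8.64 CPM in the GL261 libraries. In neurosphere cells Mx1 had 5.39, 3.97, 17.6, 7.39 and 5.47 CPM in the CT2A libraries, against 30.4, 22.9 and 25.1 CPM in the GL261 libraries. The lines were apart in neurosphere cells only, where the GL261 libraries held the highest levels of any sorted group. For Mx1 the log2 fold change was 0.15 (standard error 0.26, adjusted p = 0.768) in bulk tumors, -0.77 (standard error 0.34, adjusted p = 0.0904) in sorted cells and -1.75 (standard error 0.42, adjusted p = 0.00502) in neurosphere cells. Without CT2A sorted library 71, the highest of its group, Mx1 was lower in sorted cells too (log2 fold change -1.17, adjusted p = 0.027).

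Mx2 was called lower in sorted cells only. In bulk tumors Mx2 had 9.31, 7.34, 13.7 and 10.3 CPM in the CT2A libraries, against 13.4, 12.8, 18.8 and 16.1 CPM in the GL261 libraries. In sorted cells Mx2 had 5.45, 4.15 and 6.17 CPM in the CT2A libraries, against 13.4, 7.21, 7.2 and 10.4 CPM in the GL261 libraries. In neurosphere cells Mx2 had 4.57, 4.2, 15.1, 6.38 and 4.14 CPM in the CT2A libraries, against 9.23, 6.11 and 8.53 CPM in the GL261 libraries. The lines overlapped in bulk tumors and neurosphere cells, where CT2A library 59 was again the highest. For Mx2 the log2 fold change was -0.52 (standard error 0.23, adjusted p = 0.146) in bulk tumors, -0.92 (standard error 0.31, adjusted p = 0.0355) in sorted cells and -0.24 (standard error 0.45, adjusted p = 0.659) in neurosphere cells, and -0.75 (adjusted p = 0.024) in the last without library 59. The sorted call was lost without CT2A library 69, 70 or 71 or GL261 library 84 (adjusted p = 0.064 to 0.133) and with all 6 groups in 1 fit (adjusted p = 0.057).

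Of the 11 other induced genes, Epsti1 and Phf11d had the lowest log2 fold changes in neurosphere cells. Epsti1 is named for the interaction of epithelial and stromal cells. In bulk tumors Epsti1 had 8.66, 15.6, 17.2 and 14.8 CPM in the CT2A libraries, against 52.1, 28, 39.3 and 45.7 CPM in the GL261 libraries. In sorted cells Epsti1 had 11.9, 8.88 and 15.3 CPM in the CT2A libraries, against 132.6, 94.4, 85.4 and 150.3 CPM in the GL261 libraries. In neurosphere cells Epsti1 had 8.49, 7.55, 20.2, 11.6 and 10 CPM in the CT2A libraries, against 124.2, 126.7 and 100.0 CPM in the GL261 libraries. No CT2A library reached a GL261 library of its setting, and the GL261 bulk tumors held less than the GL261 sorted cells. For Epsti1 the log2 fold change was -1.51 (standard error 0.30, adjusted p = 0.00823) in bulk tumors, -3.32 (standard error 0.28, adjusted p = 3.21e-05) in sorted cells and -3.38 (standard error 0.28, adjusted p = 6.20e-06) in neurosphere cells.

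Phf11d, a zinc finger gene of a family of close copies, was lowest in neurosphere cells. In bulk tumors Phf11d had 12.4, 10.3, 23 and 15.1 CPM in the CT2A libraries, against 32.5, 28.6, 49 and 51.5 CPM in the GL261 libraries. In sorted cells Phf11d had 3.96, 3.69 and 10.1 CPM in the CT2A libraries, against 33.3, 30.1, 28.3 and 50.2 CPM in the GL261 libraries. In neurosphere cells Phf11d had 4.65, 3.89, 4.36, 4.07 and 3.84 CPM in the CT2A libraries, against 45.9, 49.6 and 31.3 CPM in the GL261 libraries. The lines did not overlap. For Phf11d the log2 fold change was -1.35 (standard error 0.30, adjusted p = 0.0143) in bulk tumors, -2.64 (standard error 0.40, adjusted p = 7.39e-04) in sorted cells and -3.38 (standard error 0.18, adjusted p = 4.18e-07) in neurosphere cells. With Phf11a to Phf11d summed, the bulk difference was -0.76 (adjusted p = 0.0542).

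Another 5 of the 11, and the TRIM gene Trim30a, were lower in all 3 comparisons. Lgals3bp, a secreted glycoprotein that binds galectins, had log2 fold changes of -1.43, -2.01 and -2.53 in bulk, sorted and neurosphere samples. Xaf1, a partner of the apoptosis inhibitor XIAP, had -1.59, -2.63 and -2.08, and Ifi35 had -1.76, -2.18 and -2.03. Ifi44 had -1.65, -2.62 and -2.49, Sp100, a nuclear body protein, -1.09, -1.80 and -2.12, and Trim30a, of a family of close copies, -1.20, -2.02 and -2.24. Rtp4, Tor3a and Trim21, the cytosolic antibody receptor, were lower in sorted and neurosphere cells and did not pass in bulk tumors, where their log2 fold changes were -0.60, -0.77 and -0.61. Other settings did call them lower there. Tor3a passed by DESeq2 (adjusted p = 0.0173), with its size factors (adjusted p = 0.0479), with no minimum count (adjusted p = 0.0378), with the length offset (adjusted p = 0.043), in the fit of all 6 groups (adjusted p = 0.00651) and without GL261 library 412 (adjusted p = 0.00347). Rtp4 passed by DESeq2 (adjusted p = 0.0349), in the fit of all 6 groups (adjusted p = 0.034) and without GL261 library 412 (adjusted p = 0.0285) or CT2A library 47 (adjusted p = 0.0274). Trim21 passed in the fit of all 6 groups (adjusted p = 0.0381) and without GL261 library 412 (adjusted p = 0.0403) or CT2A library 47 (adjusted p = 0.0423).

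Parp9 and its partner ligase Dtx3l overlap each other on opposite strands of chromosome 16 (Dtx3l 35926511 to 35939151, Parp9 35938470 to 35972605, GRCm38), so that reads from the overlap may not be assigned safely. In bulk tumors Parp9 had 82.9, 70.8, 109.4 and 72 CPM in the CT2A libraries, against 109.9, 75.8, 107.0 and 120.5 CPM in the GL261 libraries. In sorted cells Parp9 had 91.7, 81.3 and 86.6 CPM in the CT2A libraries, against 319.9, 207.6, 187.2 and 242.6 CPM in the GL261 libraries. In neurosphere cells Parp9 had 65.2, 82.8, 71.9, 81.2 and 77.7 CPM in the CT2A libraries, against 236.5, 230.9 and 189.5 CPM in the GL261 libraries. The bulk groups overlapped and the others were apart. For Parp9 the log2 fold change was -0.24 (standard error 0.22, adjusted p = 0.513) in bulk tumors, -1.52 (standard error 0.19, adjusted p = 3.08e-04) in sorted cells and -1.58 (standard error 0.12, adjusted p = 3.52e-06) in neurosphere cells. Dtx3l had -0.02, -1.17 and -1.29 in the same order, and was not called in bulk tumors. Of the mono-ADP-ribosyltransferases, Parp14 did likewise with -0.35, -1.42 and -1.80, whereas Parp12 was lower in all 3 with -1.22, -1.46 and -1.07.

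Whether the line difference itself differed between sorted cells and bulk tumors was tested as an interaction, sorted minus bulk, in a fit of the 4 groups. It passed for 7 of the 41 genes, all with a lower value in sorted cells, while 5.8% of all 15845 genes tested passed with a lower value and 7.67% with a higher value. Uba7, the activating enzyme for ISG15, had the smallest adjusted p. In sorted cells Uba7 had 23.8, 23.8 and 29.4 CPM in the CT2A libraries, against 115.7, 97.7, 87.4 and 126.4 CPM in the GL261 libraries. In bulk tumors Uba7 had 32.3, 36, 56.9 and 33.7 CPM in the CT2A libraries, against 59.6, 45.2, 56.6 and 72.2 CPM in the GL261 libraries. The sorted groups were far apart and the bulk groups overlapped. The difference was -1.51 (standard error 0.29, adjusted p = 0.004) for Uba7, -1.86 (standard error 0.41, adjusted p = 0.00908) for Ifit3 and -1.72 (standard error 0.39, adjusted p = 0.00997) for Epsti1. The others were Cmpk2 (-1.85), Parp9 (-1.18), Dtx3l (-1.05) and Rtp4 (-0.92), a protein that chaperones receptors. DESeq2 called 11, with all 7 among them, and the fit of all 6 groups 15, with 6 of the 7 among them, all lower. The call of Cmpk2 was lost in the fit of all 6 groups (adjusted p = 0.0996) and without CT2A sorted library 69 (adjusted p = 0.0616) or 70 (adjusted p = 0.0649), and that of Rtp4 without CT2A sorted library 69 or 70, GL261 sorted library 82 or CT2A bulk library 47 (adjusted p = 0.0563 to 0.101), with no minimum count (adjusted p = 0.0666) and with an offset for effective length (adjusted p = 0.0505). The median of all genes in this contrast was 0.12. Subline, number of implanted cells, the sort, read length and depth all changed between these experiments. Per the methods of the study the library kit changed too. None of these can be told apart. Of the markers of other cell types, 2 of 8 endothelial (median -1.22, 5 at an unadjusted p under 0.05), 2 of 6 oligodendrocyte (median -0.92) and 1 of 14 macrophage markers (median 0.40) also passed with a lower value in the same contrast, and none of 6 neuron markers did by edgeR (median 0.90, 1 at an unadjusted p under 0.05). Their part in the 7 differences was not tested.

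**Figure D5:**
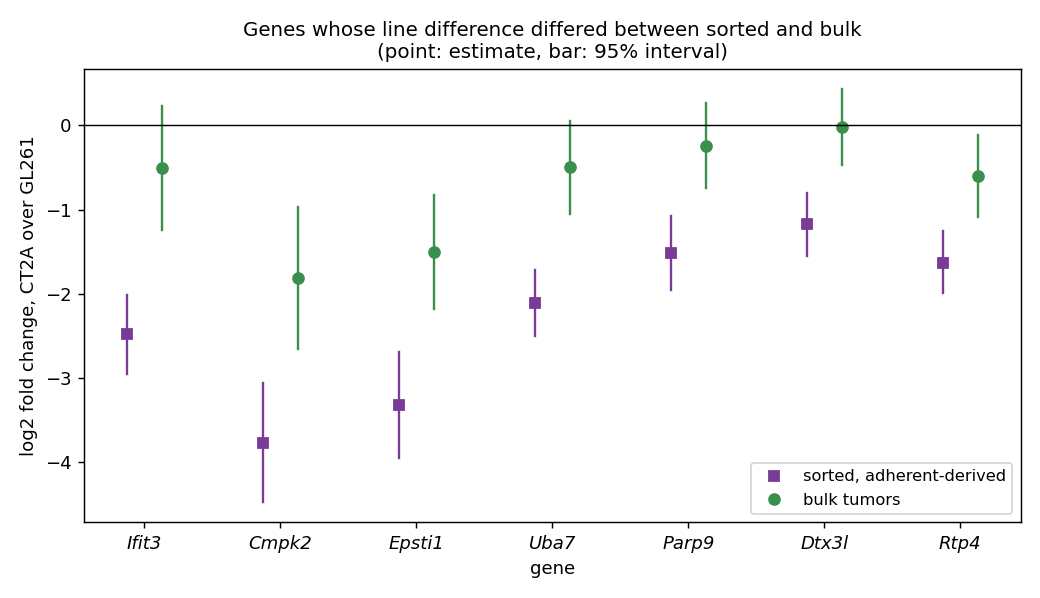
Log2 fold change, CT2A over GL261, with its 95% interval in sorted cells (squares) and bulk tumors (circles) for the 7 genes whose difference between the lines differed between these experiments. For each gene the sorted value is lower: Ifit3 had -2.48 in sorted cells and -0.51 in bulk tumors.

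Neurosphere and adherent origin were compared within each line. In GL261, 4 of 41 genes were higher in neurosphere than in sorted cells of adherent origin and none was lower, while 7.58% of 13675 genes were higher and 0.951% lower. For the count of 0, edgeR gave 2 genes lower at an unadjusted p under 0.05 and DESeq2 called 0. Mx1 had 30.4, 22.9 and 25.1 CPM in the GL261 neurosphere libraries, against 16, 10.2, 11.8 and 8.64 CPM in the GL261 sorted libraries. Lgals3bp had 969.4, 764.4 and 601.5 CPM in the GL261 neurosphere libraries, against 490.3, 475.1, 443.0 and 496.5 CPM in the GL261 sorted libraries. The groups did not overlap for either. The log2 fold change was 1.20 (standard error 0.24, adjusted p = 0.0195) for Mx1, 0.81 (standard error 0.18, adjusted p = 0.0278) for Shisa5, 0.79 (standard error 0.16, adjusted p = 0.0211) for Ifitm2 and 0.75 (standard error 0.18, adjusted p = 0.0403) for Lgals3bp. All 4 calls were lost without GL261 sorted library 82 or 84 or GL261 neurosphere library 89 or 90, 3 of them without sorted library 83, leaving Mx1, and that of Mx1 without neurosphere library 91, whereas 6 genes were higher without sorted library 81. Mx1 missed the threshold in the fit of all 6 groups (adjusted p = 0.0754) and Lgals3bp with no minimum count (adjusted p = 0.0521). Of 14 macrophage markers, 13 were higher in the same contrast, with a median log2 fold change of 3.01, against -0.10 for the 41 genes and -0.03 for all genes. The macrophage sum was 5591 to 8908 CPM in GL261 neurosphere libraries, against 266.2 to 1250 CPM in GL261 sorted libraries. The summed level of the 41 genes overlapped between the same groups, at 4650 to 5654 CPM in GL261 neurosphere libraries, against 4527 to 6115 CPM in GL261 sorted libraries.

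In CT2A, no gene of the 41 passed between neurosphere and adherent origin, where 0.0533% of 13142 genes were higher and 0.114% lower. At an unadjusted p under 0.05 edgeR had 3 genes higher (Isg15, Ifit1 and Rsad2) and 1 lower (Trim21), and DESeq2 called 0. The test of whether the line difference differed between neurosphere and adherent origin passed for none of the 41, against 5.7% of 13824 genes lower and 0.969% higher. At an unadjusted p under 0.05 it had 7 genes, and DESeq2 called 1, Ifitm1. Ifitm1 had the smallest p of the edgeR fit, -2.02 (standard error 0.60, adjusted p = 0.0598). Without CT2A neurosphere library 59, 3 genes passed, Mx1, Shisa5 and Tor3a.

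The genes that carry the interferon signal were called in both directions. Of 14 signalling genes, 2 were lower and 3 higher in CT2A bulk tumors, 9 lower and 4 higher in sorted cells, and 10 lower and 2 higher in neurosphere cells. Of all genes tested, 11.9% were lower and 11.4% higher in bulk tumors. The shares were 26.8% lower and 24% higher in sorted cells, and 29.6% lower and 30% higher in neurosphere cells. Ifnar1, a chain of the type I receptor, had log2 fold changes of 0.63 (adjusted p = 0.0252), 0.81 (adjusted p = 0.00316) and 0.32 (adjusted p = 0.0455) in bulk, sorted and neurosphere samples, and the kinase Jak1 of 0.56 (adjusted p = 0.0172), 1.17 (adjusted p = 0.00131) and 0.77 (adjusted p = 0.00565). Stat2 was lower with -1.67 (adjusted p = 0.00301), -3.69 (adjusted p = 1.53e-05) and -2.96 (adjusted p = 4.35e-06), and Irf9 with -0.74 (adjusted p = 0.0384), -1.92 (adjusted p = 8.03e-05) and -2.14 (adjusted p = 4.96e-06). Of 19 OAS, GBP, sensor and antigen processing genes kept outside the set, 11, 16 and 16 were lower in bulk, sorted and neurosphere samples and 0, 1 and 0 higher. The shares of all genes given above stand beside these counts too. Of the ligands Ifnb1, Ifng, Ifnl2 and Ifnl3, only Ifng passed the minimum count in these comparisons. Ifng, mainly a product of lymphocytes, was lower in CT2A sorted cells (log2 fold change -3.01, adjusted p = 0.0107) and neurosphere cells (-4.61, adjusted p = 7.02e-04). It did not pass in bulk tumors (-0.01, adjusted p = 0.995). Its level was 0.311 ± 0.24 CPM (SD, n = 3) in CT2A and 2.48 ± 1.56 CPM (SD, n = 4) in GL261 sorted cells. The 4 ligands together summed to 0.156 to 0.591 CPM in CT2A and 2.91 to 4.27 CPM in GL261 neurosphere libraries. The minimum count is a mean over both groups, and Ifng was near the floor in CT2A sorted and neurosphere cells. It was tested there only through its GL261 level, so these calls add nothing to the levels.

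Levels of different genes were compared on the TPM scale. By the mean TPM of a group, Ifitm3 was the highest of the 41 genes in all 6 groups, with 592.0 TPM in CT2A sorted cells and 1087 TPM in GL261 sorted cells. The rank below it differed between the lines. In CT2A the second gene was Ifitm2 in every setting, with 423.2 TPM in bulk, 408.9 TPM in sorted and 439.4 TPM in neurosphere samples. In GL261 it was Bst2 in every setting, with 1031, 920.2 and 701.2 TPM, while Ifitm2 had 212.5, 199.9 and 322.3 TPM there and ranked 7, 6 and 4. Bst2 in CT2A had 350.5 TPM in bulk, 155.3 TPM in sorted and 148.5 TPM in neurosphere samples. Adar ranked 9 of 41 in CT2A sorted cells, at 52.3 TPM, and 29 of 41 in GL261 sorted cells, at 45.8 TPM. At the low end Ddx60, Mx1, Mx2 and Cmpk2 were at 3.68, 4.36, 4.88 and 4.71 TPM in CT2A sorted cells, where GL261 sorted cells held 16.0, 6.49, 9.68 and 60.5 TPM. Counted by the ISRE core, 11 of the 13 genes with a match and 17 of the 20 without a match were lower in CT2A sorted cells. The counts were 6 of 13 and 13 of 20 in bulk tumors, and 9 of 13 and 15 of 20 in neurosphere cells. Of all genes tested, 26.8% were lower in sorted cells, 11.9% in bulk tumors and 29.6% in neurosphere cells. Among the 13 with a match, Ifitm2 was higher in every comparison. The difference between genes with and without a match was not tested.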

How the data were processed

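The deposited estimated counts of reads per transcript, not normalized, and the TPM values beside them were made by the authors with Salmon on a mouse GRCm38 (mm10) transcriptome, and the deposited expected counts per gene, used as an alternative for the bulk and sorted libraries of adherent origin, with STAR 2.7.7a and RSEM 1.3.3. The deposited effective lengths were used for an offset in 1 alternative. Estimated counts of 116546 transcripts were summed to 35576 genes and rounded to whole numbers. Transcripts with no gene, 0.0413% to 0.152% of the reads of a library, were left out of sizes and tests. Depth was 7395846 to 42608400 reads per library, and read length was 150 bases in bulk and 37 bases in the other libraries.

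Testing took the genes whose mean normalized count was above 10. It used edgeR (version 4.0.16, R 4.3.3) and its quasi-likelihood F test with TMM scaling, robust dispersion and Benjamini-Hochberg adjustment over all genes tested. Each line comparison was fitted on its 2 groups, and an interaction on its 4 groups. Standard errors were derived from the F statistic. Alternatives were DESeq2 1.42.0, its size factors, other minimum counts, a length offset, all groups in 1 fit, RSEM counts, summed close copies, a fold minimum and each library left out. The tests were checked on simulated counts. Plots used matplotlib 3.10.9.

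The members and lists were chosen with earlier results of these data known. Values of every library are given for genes called higher in CT2A, genes called lower in fewer than 2 line comparisons, the 3 lowest genes of each line comparison, and the 3 interaction genes with the smallest adjusted p. Isg15, Ifitm3, Parp9 and Lgals3bp were added after their values were seen. The exceptions are Uba7, given for bulk and sorted libraries only, and Lgals3bp, given for GL261 sorted and GL261 neurosphere libraries only. Replicates carry a sample number of their own, none shared between groups. The p-values weigh a difference between groups against the spread between these samples. Items withheld from the text are not reported here.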

Additional observations from a re-analysis of the deposited data

Results flagged for a closer look

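Within groups of 4 or 5 libraries, 17 of 164 gene and group combinations had 1 library whose gap to the nearest other took up more of the range than Dixon's 95% limit allows. Chance gives about 1 in 20 such groups. Of the 17, 9 came from CT2A neurosphere library 59, which was the highest with 171.9 CPM of Rsad2, 80.7 CPM of Cmpk2, 280.8 CPM of Ifit1, 182.4 CPM of Ifit2, 17.6 CPM of Mx1, 15.1 CPM of Mx2, 138.8 CPM of Trim25, 33.5 CPM of Tor3a and 126.6 CPM of Shisa5. CT2A bulk library 47 was the highest for another 5, with 99.4 CPM of Isg15, 56.9 CPM of Uba7, 54.4 CPM of Ube2l6, 38.6 CPM of Rsad2 and 52.7 CPM of Xaf1. GL261 sorted library 81 was the highest for Rsad2, with 263.3 CPM, and Shisa5, with 121.9 CPM. GL261 bulk library 412 was the lowest for Ifitm2, with 30.7 CPM against 56.1 to 61.3 CPM in the other GL261 bulk tumors.

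The difference between CT2A and GL261 was itself different in sorted cells and bulk tumors for 7 genes by edgeR's interaction test. The difference of log2 fold changes, sorted minus bulk, was -1.86 for Ifit3, -1.85 for Cmpk2, -1.72 for Epsti1, -1.51 for Uba7, -1.18 for Parp9, -1.05 for Dtx3l and -0.92 for Rtp4.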

How the results depend on the processing

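With 1 library left out at a time, genes lower in CT2A numbered 16 to 25 in bulk tumors, 32 to 34 in sorted cells and 30 to 34 in neurosphere cells, and genes higher 0 to 1, 1 to 2 and 0 to 1. Between neurosphere and adherent origin, 0 to 6 genes were higher and 0 to 1 lower in GL261, and 0 to 0 in CT2A. The interactions called 0 to 3 genes (neurosphere) and 5 to 10 genes (sorted and bulk). DESeq2 called 2 genes higher in bulk tumors, 1 in the neurosphere interaction and 11 in the sorted and bulk interaction. RSEM counts gave 2 higher in bulk tumors. With a fold change of at least 1 on the log2 scale also required, 0 were higher in bulk tumors, 1 in sorted cells, 0 in neurosphere cells and 1 in GL261 neurosphere over adherent cells. The fit of all 6 groups called 1 gene in the neurosphere interaction and 15 in the sorted and bulk interaction, and summing close copies 1 in the neurosphere interaction. The cause of these changes was not tested.

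Direction turned only where a gene had not passed the threshold by edgeR with all libraries of the comparison. Not all of these were near 0: Ifit1 in neurosphere cells turned from 0.36 to -0.09 without CT2A library 59. In bulk tumors Mx1 was at -0.04 with an offset for effective length, Samd9l at -0.01 with DESeq2, -0.01 with its size factors and -0.05 with no minimum count, and Dtx3l at 0.04 with all 6 groups and 0.06 with RSEM counts. In neurosphere cells Samd9l was at 0.03 with no minimum count. With a library left out, the bulk values ran from -0.08 to 0.26 for Mx1, -0.12 to 0.03 for Adar, -0.14 to 0.19 for Samd9l and -0.15 to 0.08 for Dtx3l, and the neurosphere values from -0.09 to 0.52 for Ifit1, -0.48 to 0.10 for Ifitm1, -0.08 to 0.09 for Samd9l and -0.27 to 0.12 for Ifi27. No paired analysis was possible because the groups share no replicate number.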
